A study of Mus musculus with 27 samples.

Results

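The mRNAs of 28 proteins of the small (40S) subunit of the cytosolic ribosome were followed along the adult mouse lineage that leads to new neurons of the olfactory bulb. The members were chosen by name, as cytosolic 40S proteins, and all 28 symbols matched 1 gene each among the 45195 genes of the count table. They are Rpsa, Rps2, Rps3, Rps3a1, Rps4x, Rps6, Rps7, Rps9, Rps10, Rps12, Rps13, Rps14, Rps15, Rps15a, Rps16, Rps18, Rps19, Rps20, Rps21, Rps23, Rps24, Rps25, Rps26, Rps27, Rps27a, Rps28, Rps29 and Fau.

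The series holds 27 libraries in 10 groups. The subventricular zone (SVZ) gave stem cells (NSC) and early neuroblasts (ENB), and late neuroblasts (LNB) and neurons (Neuron) came from the olfactory bulb (OB). All mice were males of 8 to 12 weeks on a C57BL/6 background. NSC came from the TiCRY line, in which Tlx drives a tamoxifen-inducible Cre (Tlx-CreER), and ENB, LNB and Neuron came from the DiCRY line, in which Dcx drives it (Dcx-CreER). In both, recombined cells express eYFP, and RiboTag puts an HA epitope on Rpl22, a protein of the large subunit. Tamoxifen was given by mouth at 200 mg per kg. Library names carry 4 days for the NSC immunoprecipitates and 3 days for those of ENB and LNB, and 4 weeks for the Neuron libraries; the names of the other total mRNA libraries carry no time. Among the controls, OB controls 1 and 2 carry 3 days, OB control 3 carries 4 weeks, SVZ control 1 carries 4 days and the other SVZ controls carry no time. Cre line and stage cannot be told apart wherever NSC is compared with another stage. Time and stage cannot be told apart in the immunoprecipitates of ENB over NSC and of Neuron over LNB. Tissue and stage cannot be told apart in LNB over ENB or Neuron over NSC, where SVZ is compared with OB. Total mRNA (3 libraries for each stage) came from 200 to 500 sorted eYFP-positive cells of 1 to 2 mice. Ribosome-bound mRNA (2 NSC, 2 ENB, 3 LNB and 2 Neuron libraries) came from anti-HA immunoprecipitation of unsorted tissue homogenate. The controls are the same immunoprecipitation from OB (3 libraries) or SVZ (3 libraries) tissue without HA, and 2 of the SVZ controls are marked Cre-negative in their names. For the 2 Neuron immunoprecipitates the labels conflict: the titles name them as ribosome-bound and were followed here, while another field calls them total mRNA from sorted cells.

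Each 40S subunit holds 1 copy of nearly all of its proteins, so cells make the proteins in matched amounts, and surplus copies are degraded. In vertebrates their mRNAs start with a C followed by a run of pyrimidines, the 5′ terminal oligopyrimidine (TOP) motif, through which the kinase mTOR and the RNA-binding protein Larp1 control how much of each mRNA is held on ribosomes. In the subventricular lineage ribosome production is high in cycling progenitors.

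The promoter sequences available from RefSeq (GRCm38.p6) cover 24 of the 28 members (not Rps14, Rps20, Rps27a and Rps29) in 28 windows of 300 bases, from 250 bases before to 50 after the annotated start. The ETS-family motif CCGGAAG was found on either strand in the windows of 10 of the 24 members (41.7%), against 9.93% of all 27025 genes with a window. The YY1 motif AAGATGG was found for 6 members (25.0%, against 7.28% of all genes), the Sp1/KLF motif GGGCGG for 13 (54.2%, against 38.2%) and the TATA box letters TATAAA for 2 (8.33%, against 15.7%). A TOP start, taken as a C within 5 bases of the annotated start that is followed by at least 4 pyrimidines, was found for 12 members (50.0%, against 21.2%). A match is a description of these letters, not a binding site. The sequences are the stretches from 90 bases before to 20 after the start of 6 members, chosen because Rps26 and Rps21 were among the members with the most negative change in Neuron over LNB total mRNA, Rps3 and Rps6 had the least negative change there, and Rps13 and Rps15a were the most raised in LNB over ENB ribosome-bound mRNA. Capitals mark the matches to these motifs and the pyrimidine run of a TOP start, and adjoining capitals can belong to a pair of overlapping matches.
Rps26 (chr10:128626487-128626596, minus strand): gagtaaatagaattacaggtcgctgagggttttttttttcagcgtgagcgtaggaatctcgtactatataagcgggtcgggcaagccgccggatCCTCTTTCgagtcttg
Rps21 (chr2:180257289-180257398, plus strand): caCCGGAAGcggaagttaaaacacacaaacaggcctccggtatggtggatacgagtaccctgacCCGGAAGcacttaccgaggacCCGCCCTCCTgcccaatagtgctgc
Rps3 (chr7:99483690-99483799, minus strand): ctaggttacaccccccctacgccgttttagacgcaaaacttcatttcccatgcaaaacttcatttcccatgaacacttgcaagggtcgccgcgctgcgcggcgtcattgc
Rps6 (chr4:86857348-86857457, minus strand): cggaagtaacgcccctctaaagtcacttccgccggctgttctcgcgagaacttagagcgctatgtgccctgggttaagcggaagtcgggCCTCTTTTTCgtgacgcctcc
Rps13 (chr7:116334171-116334280, minus strand): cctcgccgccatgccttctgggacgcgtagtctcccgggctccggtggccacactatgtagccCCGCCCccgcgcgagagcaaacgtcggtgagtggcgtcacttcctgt
Rps15a (chr7:118116128-118116237, minus strand): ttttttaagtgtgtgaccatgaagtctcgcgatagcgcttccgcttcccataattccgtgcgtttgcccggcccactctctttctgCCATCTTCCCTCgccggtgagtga
Within these stretches Rps26, Rps21, Rps6 and Rps15a had a TOP start, and Rps3 and Rps13 had none at the annotated start. Rps21 alone of the 6 had the ETS motif here, at 2 places, and Rps15a alone had the YY1 motif. Another annotated start of Rps21, not shown, had no TOP start.

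The libraries held 5225929 to 15994635 counts in total mRNA, 6325479 to 13316334 in ribosome-bound mRNA and 5960357 to 9120659 in the controls. Marker genes separated most, but not all, of the sorted groups. In total mRNA, 10 NSC markers summed to between 6729 and 7590 CPM (counts scaled to a common library size) in NSC and to between 815 and 1197 CPM in ENB. They summed to 7270, 1130 and 10061 CPM in the 3 LNB libraries and to 2250, 4755 and 1151 CPM in those of Neuron, so LNB replicates 1 and 3 went against their label at the level of the NSC libraries or above it. The 10 neuron markers summed to between 8330 and 12129 CPM in Neuron and 1063 and 2218 CPM in LNB, and the 10 neuroblast markers to between 1877 and 2094 CPM in Neuron and 6464 and 14577 CPM in LNB. Markers of glia were also present. The 7 astrocyte markers summed to 1791, 4056 and 892 CPM in the Neuron total libraries and 5336, 969 and 7161 CPM in those of LNB. The 7 oligodendrocyte markers summed to 1947, 6224 and 8853 CPM in the Neuron total libraries and to between 1450 and 3114 CPM in those of LNB; their part in the results was not tested. In bulk libraries such as these, fewer cells of a type and less RNA per cell cannot be told apart.

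Levels of different 40S mRNAs can be compared only per length, in the deposited TPM values, which count transcripts after correction for their length. In NSC total mRNA the most abundant members were Rps27, a zinc-binding protein of the subunit, at 2143 ± 478 TPM, and Rps29, a zinc-binding protein of its head, at 1882 ± 438 TPM (SD, n = 3 each). Rps26, which lines the channel through which mRNA leaves the subunit, followed at 1539 ± 193 TPM, then Rps9 at 1433 ± 88 TPM and Rps14 at 1409 ± 64 TPM. At the low end were Rps20, a head protein, at 254 ± 49 TPM, Rpsa at 341 ± 32 TPM, Rps3 at 430 ± 38 TPM, Rps23 at 468 ± 44 TPM and Rps15a at 475 ± 53 TPM. The order of levels is therefore well spread: over 27 members the highest TPM was 8.43 times the lowest in NSC and 11.0 times the lowest in Neuron total mRNA. Neighbours in the order often lay within each other's SD, as did Rps9 and Rps14. Rps12 is listed at 0 TPM in 21 of the 27 libraries and at up to 91.1 TPM in the others, although it had 8809 raw counts over the 12 total mRNA libraries, so its TPM was not used. The deposited expected counts were 0.953 times (Fau) to 3.23 times (Rps6) the raw counts of a member in total mRNA, Rps12 aside, and the rows of 95 pseudogenes named after members held 0.468% to 3.18% as many raw counts as the members did. Summed over all genes, the raw counts of a total mRNA library were 0.400 to 0.618 times its expected counts. So the library totals, and not the members alone, held more expected than raw counts. How reads were shared between members and near-identical copies is uncertain, above all for Rps12, with 46.23 expected counts, and for Rps27 and its copy Rps27rt, which had 235 raw and 9769 expected counts.

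**Figure D1:**
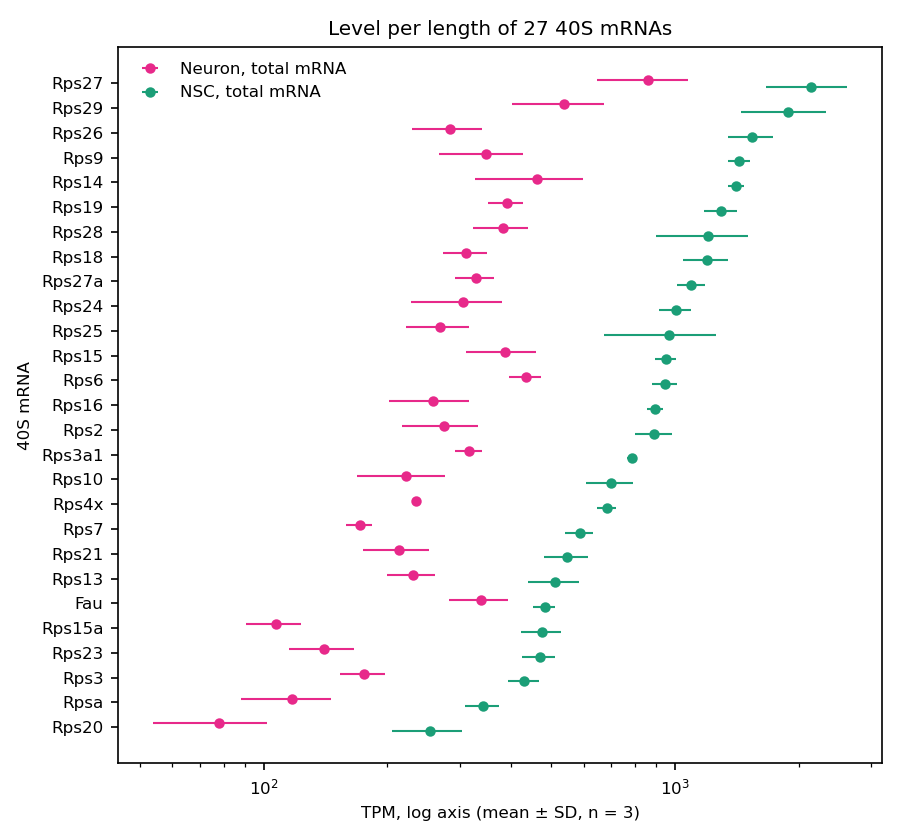
Mean deposited TPM on a log axis with SD (n = 3) for 27 members in Neuron and NSC total mRNA, ordered by the NSC mean. Every Neuron mean lies left of the NSC mean of the same gene, and Rps26, at 1539 TPM in NSC, is at 284 TPM in Neuron.

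In total mRNA the 40S mRNAs of the first 3 stages overlapped in level, and those of neurons were much lower. Summed over the 28 members, the level was 7296, 8632 and 8687 CPM in the NSC libraries, 9075, 12927 and 7829 CPM in ENB, 8737, 6643 and 6765 CPM in LNB, and 2799, 1961 and 1828 CPM in Neuron. The NSC, ENB and LNB libraries overlapped, and each Neuron library lay far below each library of the other stages. As a share of all counts the members made up 0.854% ± 0.080 in NSC, 0.954% ± 0.304 in ENB, 0.721% ± 0.133 in LNB and 0.226% ± 0.053 in Neuron (SD, n = 3 each).

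For ENB over NSC, the quasi-likelihood test of edgeR, adjusted over all genes by Benjamini-Hochberg, called 0 of 28 members (1 at an unadjusted p under 0.05, and 0 by DESeq2), where it called 10.1% of all genes. The median log2 change of the members was 0.29, with 24 above 0. The ends of the range were Rps25, Rps2 and Rps18 (-0.18, -0.15 and -0.06) and Rps27, Rps9 and Rps12 (0.66, 0.55 and 0.53). The median was 0.04 without ENB replicate 2, the library with 12927 CPM, and also 0.04 without NSC replicate 1. Within the libraries that share the second barcode index of the labels, a label of the library preparation, the median was -0.04 for one index and 0.77 for the other. For LNB over ENB the same test also called 0 of 28 (3 at an unadjusted p under 0.05, and 1, Rps6, by DESeq2), against 3.77% of all genes. All 28 log2 changes lay below 0, with a median of -0.41, and the within-index medians were -0.30, with LNB replicate 2 alone for LNB, and -0.73, with LNB replicates 1 and 3. The most negative were Rps9 at -0.77 ± 0.26 (SE; adjusted p = 0.13 by edgeR), Rps6 at -0.65 ± 0.19 (adjusted p = 0.088 by edgeR) and Rps26 at -0.58, and the least negative were Rps12, Rps21 and Rps13 at -0.19, -0.15 and -0.13.

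For Neuron over LNB all 28 members fell (edgeR, adjusted p from 0.00026 to 0.021), against 9.34% of all genes called lower. The median log2 change was -1.75, a 3.37-fold lower level, where the median over all genes was -0.18. With RLE in place of TMM scale factors the median over all genes was -0.01 and that of the members -1.59. Leaving out 1 library left 26 to 28 calls, and within the 1 index that holds both stages, where LNB replicate 2 is the LNB library, the median was -1.62 with 28 members below 0. This value does without LNB replicates 1 and 3, the libraries high in NSC and astrocyte markers. Against NSC the 28 members also fell, with a median log2 change of -1.89 and 12.8% of all genes called lower, from Rps26 (-2.77), Rps29 (-2.51) and Rps9 (-2.26) to Rps13 (-1.53), Rps3 (-1.40) and Rps12 (-1.39). Neuron and LNB differed in cell makeup too: 10 of 10 neuroblast markers fell and 8 of 10 neuron markers rose, and their part in the 40S result was not tested.

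The fall was not equal across the subunit. Rps26, at the mRNA exit channel, had 62.0, 42.4 and 30.4 CPM in Neuron, against 352, 257 and 273 CPM in LNB, and had the most negative change of the 28, at -2.71 ± 0.30 (log2, SE; adjusted p = 0.00026 by edgeR). Its Neuron libraries did not come near those of any other stage, since NSC held 271 to 333 CPM and ENB 335 to 588 CPM. Rps29, of the head, came next with 89.4, 38.4 and 35.6 CPM in Neuron and 375, 202 and 267 CPM in LNB, a log2 change of -2.36 ± 0.43. Rps21 had a log2 change of -2.29 ± 0.40, and Rps23, a protein of the decoding centre, one of -2.18 ± 0.29. For Rps26 and Rps29 the Neuron and LNB libraries did not overlap, but they did not for any other member either. Rps6, for one, had at most 102 CPM in Neuron and at least 149 CPM in LNB. The share of all genes without overlap was not computed.

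At the other end stood Rps6, the subunit's main phosphoprotein and a substrate of S6 kinase downstream of mTOR. Its level was 102, 84.1 and 76.0 CPM in Neuron, against 168, 166 and 149 CPM in LNB, a log2 change of -0.88 ± 0.19 (adjusted p = 0.011 by edgeR). The LNB libraries lay below those of ENB, with 241, 301 and 216 CPM, and of NSC, with 224, 278 and 267 CPM. Over NSC, the log2 change of Rps6 in Neuron was -1.55. Rps3, which sits where mRNA enters the subunit, had 221, 167 and 192 CPM in Neuron and 447, 424 and 351 CPM in LNB, a change of -1.07 ± 0.18. Rps2, also at the mRNA entry, changed by -1.33 ± 0.21. The call for Rps6 was lost without LNB replicate 2 (adjusted p = 0.051 by edgeR) and without the filter on low counts (log2 change -0.76, adjusted p = 0.055 by edgeR).

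The members made as fusions to a ubiquitin-like domain lay in the middle of the range. Rps27a, fused to ubiquitin, had 78.1, 80.9 and 80.8 CPM in Neuron and 361, 252 and 270.5 CPM in LNB, a log2 change of -1.88 ± 0.22. Fau, fused to a ubiquitin-like protein, changed by -1.81 ± 0.28. Rps14, whose loss underlies the anaemia of human 5q deletion, changed by -1.87 ± 0.27, and Rpsa, the laminin receptor precursor, by -1.47 ± 0.28. Over the 28 members the SD of the log2 changes was 0.38.

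**Figure D2:**
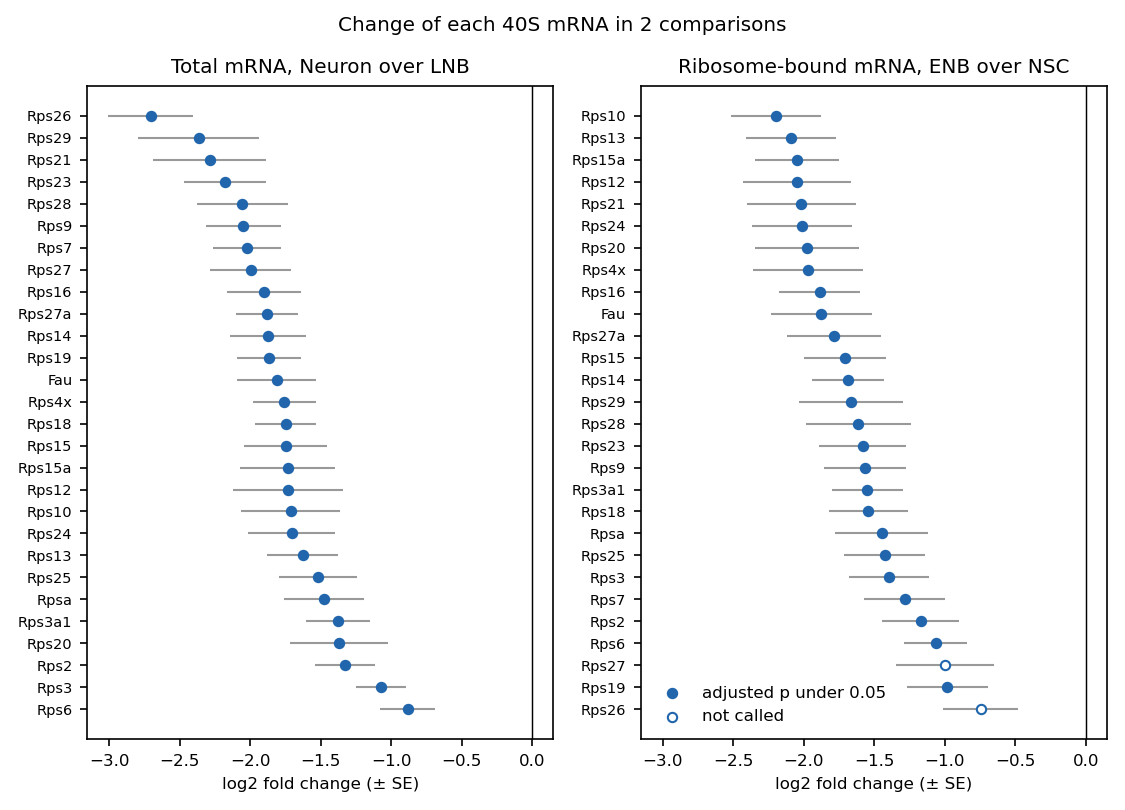
log2 fold change with SE for each member, for Neuron over LNB in total mRNA (left) and ENB over NSC in ribosome-bound mRNA (right); filled points passed an adjusted p of 0.05. At left all 28 are filled and run from Rps26 at -2.71 to Rps6 at -0.88; at right Rps27 and Rps26 are open, and Rps26 has the least negative change.

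To ask whether single members departed from the rest, the counts were refitted with the summed count of the 28 members as library size, which sets the change of the sum to 0. On that scale 50.4% of all genes were called for Neuron over LNB, so the adjustment over all genes is lenient there. For Neuron over LNB in total mRNA, Rps26 fell by a further 0.98 ± 0.23 on the log2 scale (adjusted p = 0.0043 by edgeR). Rps6 lay 0.87 ± 0.23 above the sum (adjusted p = 0.0090 by edgeR) and Rps3 0.69 ± 0.26 above it (adjusted p = 0.043 by edgeR). For Neuron over NSC the 1 member called, of 59.1% of all genes, was again Rps26, at -0.89 ± 0.23 (adjusted p = 0.0056 by edgeR). For ENB over NSC and for LNB over ENB, 0 members departed from the sum, and 0 did at an unadjusted p under 0.05 (edgeR), where 6.57% and 4.64% of all genes were called. The call of Rps3 was lost when LNB replicate 1 or 3 or Neuron replicate 2 or 3 was left out, with adjusted p from 0.068 to 0.13 (edgeR), and also without the low-count filter, with expected counts, with the replicate block and with the 60S sum as library size, with adjusted p from 0.075 to 0.17 (edgeR). Those of Rps26 and Rps6 held without any 1 library. With the summed counts of the large-subunit proteins as library size, 1 member was called higher and 6 lower.

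The share of Rps26 in the summed TPM of the members showed the same shift per length. It was 6.12% in NSC, 6.91% in ENB, 6.25% in LNB and 3.46% in Neuron total mRNA. The share of Rps6 was 3.78% in NSC, 3.16% in ENB, 2.65% in LNB and 5.34% in Neuron, and that of Fau was 1.94%, 2.10%, 1.97% and 4.14% in the same stages. In raw counts Fau was not called relative to the sum.

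The changes were also set beside transcript length. The ratio of expected count to TPM gives each member's effective length relative to the others, and its Spearman correlation with the log2 change of Neuron over LNB was 0.58 over 27 members, and 0.30 with that of Neuron over NSC. For ENB over NSC in total mRNA it was -0.46, and for ENB over NSC in ribosome-bound mRNA 0.19. These values describe genes of the same libraries, which are not independent.

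The rest of the translation machinery was compared by fixed lists. For Neuron over LNB in total mRNA, 5 of the 5 other 40S proteins tested fell (median log2 change -1.19, with Rack1 at -0.89), as did 43 of 47 proteins of the large (60S) subunit, with a median of -1.61. Of the 60S list, Rpl3 had the least negative change, at -0.39. These counts stand beside the 9.34% of all genes called lower. Among 44 factors and chaperones of 40S assembly 5 fell and 0 rose, a share near that background, with a median of -0.24, from Imp4, part of the early processing complex, at -1.27 (called) to Ltv1 at 1.13 (not called). Of 22 initiation factors that bind the 40S subunit 4 fell, with a median of -0.46, and of 19 regulators of TOP mRNAs and 40S kinases 1 fell, with a median of -0.12, which are counts too small to set apart from that background. Among 5 paralogs of the members 1 fell; Rps27l, the paralog of Rps27, had a log2 change of -2.67 in Neuron over NSC and was called.

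For Neuron over NSC 46 of 47 large-subunit proteins, 10 of 44 assembly factors and 12 of 22 initiation factors fell, against 12.8% of all genes. For ENB over NSC in ribosome-bound mRNA, 5 of 5 other 40S proteins, 42 of 47 large-subunit proteins (median -1.55, with Rpl18 at -2.17), 2 of 44 assembly factors and 3 of 22 initiation factors fell, against 4.85% of all genes, a share that the assembly factors did not pass. For LNB over ENB in ribosome-bound mRNA, 13 of 47 large-subunit proteins rose (median 0.65), led by Rpl38 at 1.47, with 0 of 44 assembly factors, against 6.81% of all genes called higher.

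The 40S mRNAs were abundant in the no-HA controls as well as in the HA immunoprecipitates. Summed over members, the SVZ immunoprecipitates held 10032 and 10722 CPM for NSC and 3509 and 3711 CPM for ENB, against 15027, 9892 and 8837 CPM in the SVZ controls. The OB immunoprecipitates held 5132, 5960 and 4589 CPM for LNB and 4006 and 4314 CPM for Neuron, against 4485, 4141 and 5576 CPM in the OB controls. So the NSC, LNB and Neuron values lay within or close to the range of their controls, and both ENB libraries lay far below theirs.

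In the NSC immunoprecipitate over the SVZ control, 2 of 28 members were called higher and 3 lower, against 8.75% and 6.59% of all genes. Rps13, a protein of the subunit body, had 106 and 170.2 CPM in NSC and 85.2, 62.0 and 42.5 CPM in the control (log2 change 1.13 ± 0.28, adjusted p = 0.013 by edgeR). Rps15a rose by 0.83 ± 0.25, and Rps27, Rps26 and Rps19 fell by 1.11 ± 0.32, 1.04 ± 0.25 and 0.87 ± 0.27. Without SVZ control 1, the control with 15027 CPM, 7 members were called higher and 1 lower, and without NSC replicate 2 0 were called; without NSC replicate 1, SVZ control 2 or SVZ control 3 there were 2 calls. For comparison, 10 of 10 NSC markers and 9 of 10 neuroblast markers rose over the same control.

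In the ENB immunoprecipitate 23 of 28 members fell below the SVZ control, against 0.813% of all genes called lower. The median log2 change was -1.73, a 3.33-fold lower level, and all 28 values lay below 0. Rps12 was lowest at -2.54 ± 0.37, with 42.4 and 36.6 CPM in ENB and 364, 188 and 135 CPM in the control, followed by Rps28 at -2.29 ± 0.36 and Rps15, a head protein, at -2.24 ± 0.28. The members not called were Rps2, Rps4x, Rps9, Rps13 and Rpsa, at -1.33 to -0.79. Without ENB replicate 1 there were 11 calls, and without ENB replicate 2 there were 0, with a median of -1.69. Of 10 neuroblast markers 9 rose over the same control. Of 47 proteins of the large subunit 37 fell. The 7 oligodendrocyte markers summed to between 20666 and 21151 CPM in ENB and between 18027 and 23630 CPM in the control, with 0 of 7 called. Within the index shared by 1 library of each group the median was -2.04.

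In the OB, 1 member (Rps13, 0.86 ± 0.25, adjusted p = 0.040 by edgeR) was called higher in the LNB immunoprecipitate than in the control, against 7% of all genes called higher, and 0 were called when any 1 library was left out, with RLE scale factors or without scale factors. DESeq2 called 1 higher and 2 lower. In the Neuron immunoprecipitate 3 were higher and 3 lower, against 11.6% and 15.7% of all genes. Rps13 again rose, with 102 and 109 CPM in Neuron and 48.5, 45.3 and 53.2 CPM in the control (1.11 ± 0.28). Rps21 (1.04 ± 0.33) and Rps15a (0.78 ± 0.25) were higher too. Rps26 fell by 1.76 ± 0.26, with 95.2 and 91.5 CPM in Neuron and 273, 334 and 344 CPM in the control (adjusted p = 0.00037 by edgeR), and kept its call when any 1 library was left out. Where that leaves 1 library in a group, here as elsewhere, the lone library is assumed to vary like the other groups, which then supply the spread. Rps15 and Rps19 fell by 0.91 ± 0.27 and 0.89 ± 0.27. The calls of Rps15, Rps19, Rps15a and Rps21 were lost without either Neuron library or without OB control 3, the one OB control at 4 weeks as the Neuron libraries are, and that of Rps13 without Neuron replicate 2 (adjusted p = 0.053 by edgeR), so that 1 to 6 calls were left without 1 library. In that comparison 9 of 10 neuron markers rose, and all 7 astrocyte, all 7 microglia and all 7 endothelial and mural markers fell.

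The 2 tissue controls also differed. In the OB control 25 of 28 members were lower than in the SVZ control, against 6.12% of all genes called lower, with a median log2 change of -1.25. Rps12 (-1.84 ± 0.31), Rps15 (-1.81 ± 0.24) and Rps27 (-1.74 ± 0.29) had the most negative changes, and Rps7, Rps13 and Rps15a were not called. Without SVZ control 1 the median was -0.95 with 17 calls, and within the 1 index that holds both controls it was -0.53 with 26 of 28 below 0. All 7 oligodendrocyte markers were also lower in the OB control, and their part in the result was not tested.

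Between stages, the 40S mRNAs of the immunoprecipitates dropped at the first step. As a set they stood above the SVZ control in neither group, with median log2 changes of -0.02 for NSC and -1.73 for ENB. For ENB over NSC 26 of 28 members fell, against 4.85% of all genes called lower, with a median log2 change of -1.64, a 3.11-fold lower level. Cre line, time and stage cannot be told apart in this comparison. Rps10, of the head, had 45.6 and 41.8 CPM in ENB and 202 and 199 CPM in NSC, a log2 change of -2.20 ± 0.32 (adjusted p = 0.0019 by edgeR). Rps13 changed by -2.09 ± 0.32 and Rps15a by -2.05 ± 0.30. Rps26, with 194 CPM in both ENB libraries and 291 and 362 CPM in NSC, had the least negative change (-0.75 ± 0.27, adjusted p = 0.095 by edgeR) and was not called, nor was Rps27 at -0.997 ± 0.35. Relative to the sum of the members, Rps26 was accordingly 0.78 ± 0.30 higher (adjusted p = 0.035 by edgeR, with 52.5% of all genes called), and this call was lost without any 1 of the 4 libraries. Calls over the 28 members were 10 without ENB replicate 1 and 13 without ENB replicate 2. Rps14 (-1.68), Rps27a (-1.78), Fau (-1.87) and Rpsa (-1.45) fell near the median, and Rps6 fell by 1.06. The 10 NSC markers all fell at this step while 3 of 7 oligodendrocyte markers rose, and all 7 summed to between 20666 and 21151 CPM in ENB and between 7551 and 8582 CPM in NSC, and their part was not tested.

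For LNB over ENB, 5 members rose, against 6.81% of all genes called higher. They were Rps15a (1.48 ± 0.27), Rps13 (1.45 ± 0.30), Rps29 (1.19 ± 0.34), Rps10 (0.94 ± 0.29) and Rps7 (0.91 ± 0.27), and the median of all 28 was 0.71. Leaving out 1 library left 1 to 3 calls, RLE scale factors, under which the median over all genes was -0.06 in place of 0.08, left 2, and the second index as a term gave 14. Rps15a had 87.9, 91.5 and 87.7 CPM in LNB and 32.0 and 31.9 CPM in ENB, and Rps13 had 82.5, 106 and 78.6 CPM in LNB and 29.0 and 36.0 CPM in ENB. Most members, called or not, had no overlap between these groups of 2 and 3 libraries. The share of all genes without overlap was not computed here either, so the lack of overlap sets no member apart. Rps9, not called, had at most 206 CPM in ENB and at least 299 CPM in LNB. Rps15a and Rps13 had no overlap either. These 2 kept their calls under every alternative fit that used all libraries, and Rps15a also did when any 1 library was left out, while Rps13 lost its call without ENB replicate 1 (adjusted p = 0.060 by edgeR). With 1 ENB library left, these fits take the spread from the other groups. Rps3, Rps6, Rps19 and Rps27 lay within 0.06 of 0 and were not called. Relative to the sum, Rps15a (0.96 ± 0.30, adjusted p = 0.045 by edgeR) and Rps13 (0.92 ± 0.28, adjusted p = 0.038 by edgeR) were higher, against 11.9% of all genes called. With the replicate numbers of all 15 immunoprecipitation libraries as a block, 1 of these 2 calls was left. The numbers stand for shared animals only between ENB and LNB replicates 1 and 2. Without any 1 LNB library, 0 of the 2 calls were left. All 7 oligodendrocyte markers were lower in LNB, and their part was not tested. Tissue and stage cannot be told apart at this step, and 25 of 28 members were lower in the OB than in the SVZ control.

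For Neuron over LNB only Rps26 was called among the ribosome-bound members (1 of 28, against 3.75% of all genes called lower). It had 95.2 and 91.5 CPM in Neuron and 260.5, 282 and 173 CPM in LNB, a log2 change of -1.35 ± 0.26 (adjusted p = 0.0066 by edgeR). The groups did not overlap, but the call was lost without Neuron replicate 2 (adjusted p = 0.068 by edgeR) and with the second index as a term (adjusted p = 0.051 by edgeR). No index holds libraries of both groups, and their names carry 4 weeks for Neuron and 3 days for LNB. Index, time and stage therefore cannot be told apart within this comparison. The OB controls held 273 to 344 CPM of Rps26, so the LNB libraries did not stand above them. The part that mRNA also found in the controls has in this call was not tested. The other members, none of them called, had changes from Rps2 (-0.71) and Rps4x (-0.70) to Rps29 (0.11), Rps13 (0.24) and Rps21 (0.47), with a median of -0.31 over all 28. The groups did not overlap for Rps2 either, with 153 and 158 CPM in Neuron and at least 241 CPM in LNB. Relative to the sum 0 members passed, against 1.53% of all genes, with 3 at an unadjusted p under 0.05 in edgeR, and Rps26 was at -1.01 ± 0.28 (adjusted p = 0.074 by edgeR). Of 47 proteins of the 60S subunit 1 fell at this step.

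**Figure D3:**
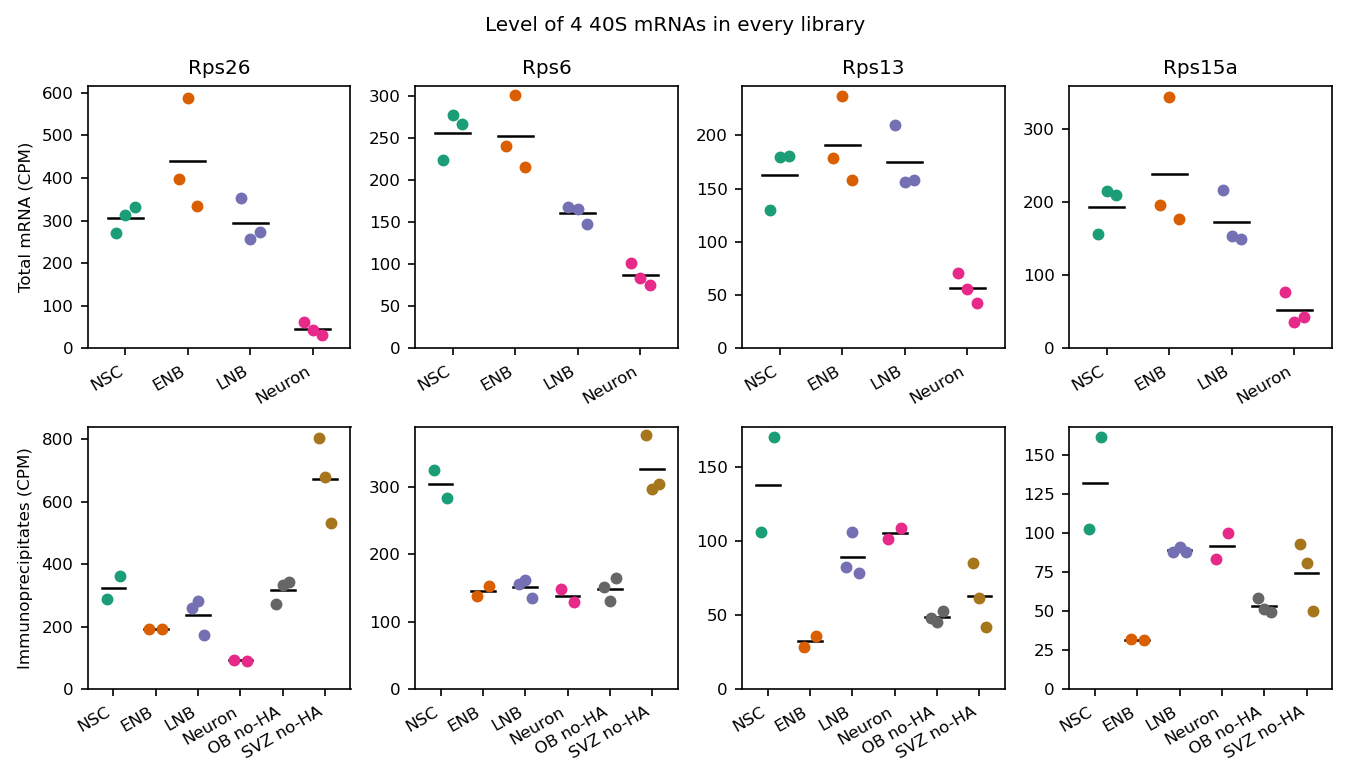
CPM of Rps26, Rps6, Rps13 and Rps15a in every library; the upper row shows total mRNA, the lower row immunoprecipitates and no-HA controls, and bars are group means. In the lower row Rps26 is lowest in Neuron (95.2 and 91.5 CPM) and highest in the SVZ control, while Rps13 is higher in Neuron (102 and 109 CPM) than in the OB control (45.3 to 53.2 CPM).

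The fit with both kinds of library tested whether each step differed between ribosome-bound and total mRNA. At ENB over NSC, 21 of 28 members moved lower in ribosome-bound than in total mRNA, against 1.32% of all genes, with a median log2 difference of -1.89. Rps12 (-2.41 ± 0.54), Rps21 (-2.34 ± 0.54) and Fau (-2.24 ± 0.39) had the most negative differences. The other called members were Rps4x (-2.20), Rps15a (-2.17), Rps10 (-2.16), Rps13 (-2.14), Rps24 (-2.13), Rps28 (-1.96), Rps9 (-1.95), Rps15 (-1.95), Rps14 (-1.93), Rps20 (-1.90), Rps23 (-1.90), Rps16 (-1.87), Rps27a (-1.85), Rps3a1 (-1.5), Rps7 (-1.49), Rps27 (-1.48), Rps18 (-1.31) and Rps3 (-1.27). Rps2 was nearest to 0 at -0.85 ± 0.28 without a call. The number of calls was 2 without ENB ribosome-bound replicate 1, 9 without replicate 2 and 11 without either NSC ribosome-bound library.

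At LNB over ENB, 6 members moved higher in ribosome-bound than in total mRNA, against 1.89% of all genes. They were Rps15a (1.83 ± 0.44), Rps13 (1.47 ± 0.36), Rps9 (1.45 ± 0.34), Rps7 (1.19), Rps4x (1.18) and Rps18 (1.11). The median over 28 was 0.97, and 0 were called without ENB ribosome-bound replicate 1 or LNB ribosome-bound replicate 2, 1 without ENB ribosome-bound replicate 2, and 2 without ENB total replicate 2 or LNB total replicate 3. At Neuron over LNB most members did not rise in ribosome-bound mRNA, where 22 of 28 lay below 0 with a median of -0.31. In total mRNA all 28 lay below 0, with a median of -1.75. The difference between the 2 kinds of library was above 0 and called for 17 members, against 1.46% of all genes. Its median was 1.45, led by Rps21 (2.75 ± 0.51), Rps29 (2.48 ± 0.55) and Rps23 (2.21 ± 0.37). The others called were Rps14 (1.90), Rps13 (1.87), Rps28 (1.81), Rps15a (1.78), Rps27 (1.74), Rps27a (1.72), Rps9 (1.72), Rps10 (1.62), Fau (1.57), Rps7 (1.52), Rps19 (1.5), Rps25 (1.41), Rps16 (1.32) and Rps18 (1.10). Rps26 was at 1.35 ± 0.38 and was not called (adjusted p = 0.061 by edgeR), and it was lower in Neuron in both kinds of library. Without Neuron ribosome-bound replicate 2 there were 2 calls and without replicate 1 there were 7, and there were 8 or 9 without LNB ribosome-bound replicate 1 or 3, LNB total replicate 1 or Neuron total replicate 2. The part that mRNA also found in the no-HA controls has in these differences was not tested.

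**Figure D4:**
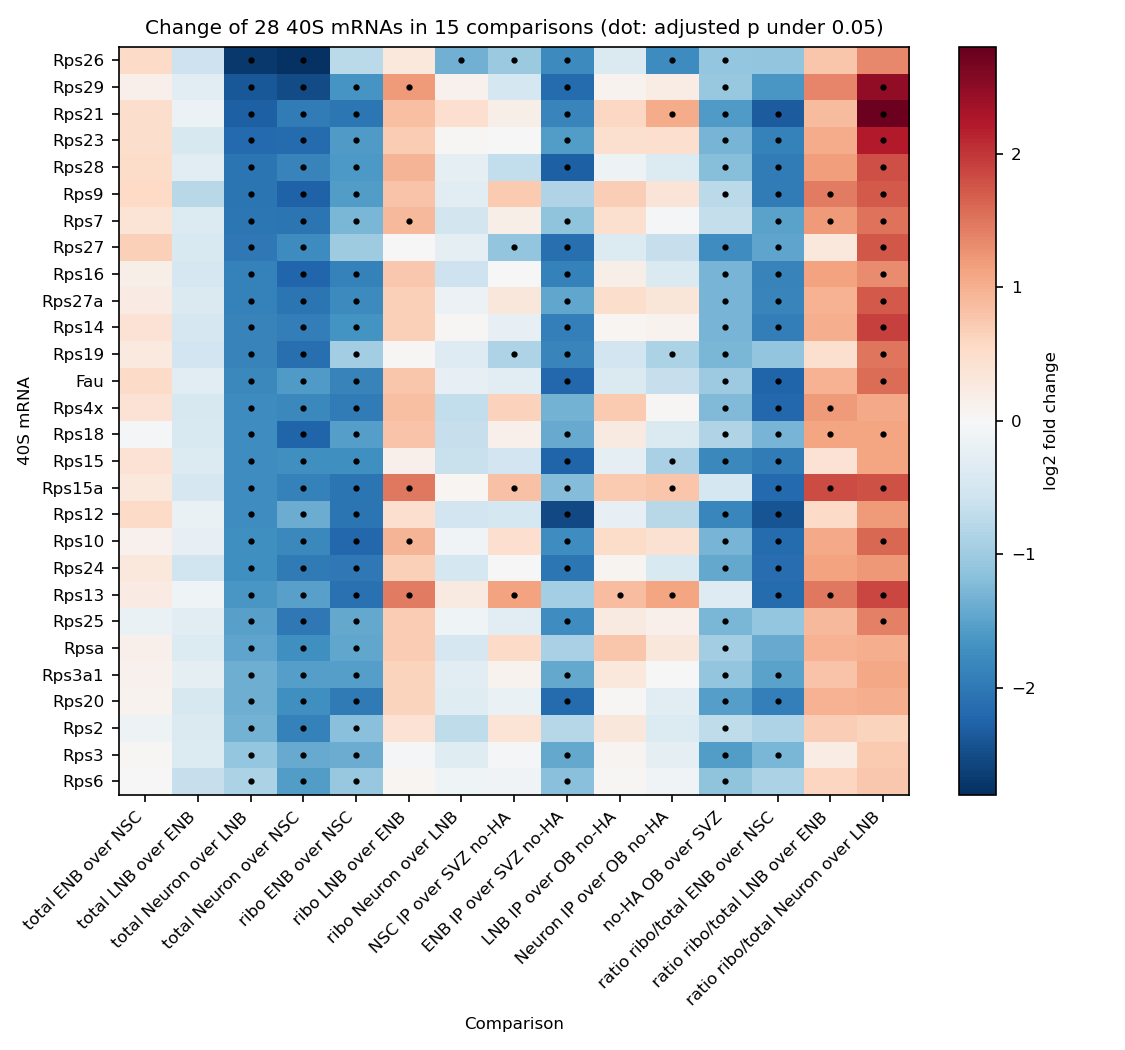
log2 fold change of the 28 members (lines, ordered by Neuron over LNB in total mRNA) in 15 comparisons (columns); blue is lower and red higher in the first-named group, and dots mark an adjusted p under 0.05. The Neuron columns of total mRNA are blue throughout, the column of ENB over NSC in ribosome-bound mRNA has 26 dots, and Rps13 has a dot and a value above 0 over the control in the NSC, LNB and Neuron immunoprecipitates.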

How the data were processed

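Expression was measured by Smart-seq2 in 27 libraries. A deposited table holds raw counts of reads for each gene, in whole numbers, and how they were counted is not given in the sources used here. The authors also deposited expected counts (estimated counts, not whole) and TPM. The submitters' processing notes name RSEM 1.2.21, Bowtie2 2.2.6 and GRCm38 without saying which tool made which file. From the raw counts, R 4.3.3 with edgeR 4.0.16 gave CPM with TMM factors, the filterByExpr filter and quasi-likelihood F tests, with Benjamini-Hochberg adjustment over all genes at 0.05, in separate fits for total mRNA (12 libraries), immunoprecipitates (15) and the interaction (21 libraries). DESeq2 1.42.0 was an alternative, and expected counts were rounded for another. The standard error of a log2 change was its size divided by the square root of F. The p-values measure the spread between these libraries. The 24 replicate pairs had Spearman correlations from 0.857 to 0.964. The fits were also run on simulated counts, in which as many genes were raised as lowered and no member was changed. Such counts do not test a shift of a whole gene set.

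Replicate numbers pair only ENB and LNB ribosome-bound libraries 1 and 2, which share animals in the labels; in total mRNA, ENB 2 and LNB 3, and ENB 3 and LNB 2, share animals under different numbers. After removing group means, same-numbered libraries correlated from -0.11 to 0.066 over 18 pairs in total mRNA and from -0.10 to 0.099 over 33 pairs in immunoprecipitates, where groups of 2 mirror each other. The main fits have no block.

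The members and lists were chosen with earlier results of these data known. Named members are, for each comparison, the 3 most negative and the 3 least negative or most positive, the 5 highest and 5 lowest by TPM in NSC, those called relative to the 40S sum or in the interaction, and Rps6, Rps27a, Fau, Rpsa, Rps26 and Rps14. Counts per kilobase were not computed, since no transcript length was given. Of other lists the counts, medians and some of the extremes are given, and some results are not reported here.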

Additional observations from a re-analysis of the deposited data

Results flagged for a closer look

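At each of 3 steps some members changed differently in ribosome-bound and in total mRNA, as tested by the interaction term of 1 edgeR fit over both kinds of library. For ENB over NSC the difference was called for 21 of 28 members, against 1.32% of all genes and with 2 to 23 calls when 1 library was left out, and the largest were those of Rps12 (-2.41 on the log2 scale), Rps21 (-2.34) and Fau (-2.24). For LNB over ENB it was called for 6 members, against 1.89% of all genes and with 0 to 8 calls without 1 library, led by Rps15a (1.83), Rps13 (1.47) and Rps9 (1.45). For Neuron over LNB it was called for 17 members, against 1.46% of all genes and with 2 to 20 calls without 1 library, led by Rps21 (2.75), Rps29 (2.48) and Rps23 (2.21). The ribosome-bound side rests on 2 or 3 libraries a stage. The members were abundant in the no-HA controls too, and the part of that mRNA in these differences was not tested. The cause of the differences was not tested either.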

How the results depend on the processing

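Of 138 counts of called members under other settings 111 stayed within 1.5 times the main count and kept their direction, as did 86 of 135 counts with 1 library left out. Without 1 library, the calls ranged in total mRNA from 0 to 0 for ENB over NSC and LNB over ENB, 26 to 28 for Neuron over LNB and 27 to 28 for Neuron over NSC. In ribosome-bound mRNA they ranged from 10 to 23, 1 to 3 and 0 to 1 over the 3 steps. Over controls they ranged from 0 to 8 (NSC, turned to more higher calls without SVZ control 1, with 8, and to a different balance without NSC replicate 1, with 2), 0 to 24 (ENB), 0 to 0 (LNB), 1 to 6 (Neuron) and 17 to 26 (OB over SVZ control). For ribosome-bound relative to total mRNA they ranged from 2 to 23, 0 to 8 and 2 to 20. Relative to the 40S sum they ranged in total mRNA from 0 to 0, 0 to 0, 2 to 4 and 1 to 2, and were 0 in each ribosome-bound step.

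DESeq2 called 1 member for LNB over ENB in total mRNA and 3 for LNB over the OB control, mostly lower. With RLE or no scale factors, LNB over ENB in ribosome-bound mRNA had 2 calls and LNB over the OB control had 0, and without scale factors the interaction for LNB over ENB had 3. Without the filter on low counts these counts were 8 (LNB over ENB, ribosome-bound) and 2 (LNB over control). Relative to the sum in ribosome-bound mRNA they were 0 for ENB over NSC and 0 for LNB over ENB. With expected counts they were 3 (NSC over control), 11 (interaction, Neuron over LNB) and, relative to the sum, 2 (Neuron over NSC, total mRNA) and 2 (ENB over NSC, ribosome-bound). With the second index as a term they were, in ribosome-bound mRNA, 14 (LNB over ENB) and 0 (Neuron over LNB). Over controls they were 2 (NSC) and 2 (LNB). In total mRNA the same term left 26 calls for Neuron over LNB. With the summed 60S counts as library size they were, in total mRNA, 7 (Neuron over LNB, mostly lower) and 5 (Neuron over NSC). In ribosome-bound mRNA they were 1 (ENB over NSC, lower), and with TMM over the members 0 (LNB over ENB). The replicate block gave 2 (NSC over control), 2 (LNB over control), 3 (Neuron over control) and, relative to the sum, 1 (LNB over ENB, ribosome-bound), and it moved no other count by over 1.5 times. The cause of these changes was not tested. Groups of 2 ribosome-bound libraries limit every result that rests on them. The index term was not run for the interaction, and counts per kilobase were not run.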
